A study of Mus musculus with 6 samples.

Results

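The Schlafen genes of the mouse are a family of growth-regulatory and interferon-responsive genes that lie side by side on 1 chromosome. All rows of the deposited count table with the symbols Slfn1, Slfn2, Slfn3, Slfn4, Slfn5, Slfn8 and Slfn9 were taken, 7 genes of 24167. The family was singled out because Slfn4 was lower in the metastases of silenced cells while other genes of neutrophils were higher there, so the difference between the groups chose it and is described below without a test. The libraries came from liver metastases grown from 4T1, a mouse line of triple-negative breast cancer, in female BALB/c mice aged 6 to 8 weeks at injection. In 1 group the injected cells carried a scrambled short hairpin RNA (shSCR, 3 libraries), and in the other a hairpin against Zdhhc17, which encodes a palmitoyltransferase (shZdhhc17, 3 libraries). Both hairpins were delivered by lentivirus with puromycin selection, 500000 cells were injected hydrodynamically into the tail vein, and metastases were dissected on day 10.

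The hairpins were in the injected cancer cells alone, and the dissected tissue also held host cells without a hairpin. In such bulk tissue, fewer cells of a type and less RNA per cell cannot be told apart. The labels speak of 3 mice per group without tying each library to 1 mouse, so the spread between replicates is that between libraries and may be partly technical.

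Schlafen proteins share a core domain that in several members cleaves or binds RNA. Mouse members fall into short proteins (Slfn1 and Slfn2), intermediate ones (Slfn3 and Slfn4) and long ones with a helicase-like domain (Slfn5, Slfn8 and Slfn9). Type I interferon, acting through the JAK-STAT pathway, raises several of them in immune cells. Slfn2 is known for keeping T cells and monocytes quiescent, and Slfn4 for its induction in macrophages and other myeloid cells by interferon and Toll-like receptor ligands. In the reference annotation (GENCODE M21, GRCm38) the 7 genes lie on chromosome 11 in the order Slfn5, Slfn9, Slfn8, Slfn2, Slfn1, Slfn4, Slfn3, within a cluster that spans 335.4 kb with the pseudogene Slfn10-ps and with Slfn14. Their coding sequences hold 337 codons in Slfn1, 378 in Slfn2, 602 in Slfn4, 640 in Slfn3, 884 in Slfn5, and 910 in both Slfn8 and Slfn9.

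The promoters are shown because the motifs matched in the long genes differed from those matched in the short and intermediate ones. The motif of the latter was taken from these same sequences, so its matches are no separate support for a split. Each line gives a stretch of 100 bases upstream of the RefSeq start (GRCm38.p6), 5′ to 3′ on the gene's strand. It runs from 100 bases before the start to the base before it, except in Slfn5, where it runs from -200 to -101. Capitals mark the matched motif.
Slfn5, chr11:82951902-82952001, plus strand: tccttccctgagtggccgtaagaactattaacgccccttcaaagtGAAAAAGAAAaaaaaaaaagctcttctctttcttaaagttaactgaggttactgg
Slfn8, chr11:83020811-83020910, minus strand: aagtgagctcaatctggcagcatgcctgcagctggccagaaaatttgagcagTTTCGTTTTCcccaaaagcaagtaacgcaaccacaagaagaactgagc
Slfn9, chr11:82991831-82991930, minus strand: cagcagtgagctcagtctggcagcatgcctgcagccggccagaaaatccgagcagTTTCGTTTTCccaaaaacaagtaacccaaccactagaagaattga
Slfn1, chr11:83116720-83116819, plus strand: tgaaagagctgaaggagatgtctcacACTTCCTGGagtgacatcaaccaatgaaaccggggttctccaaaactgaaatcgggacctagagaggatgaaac
Slfn2, chr11:83065012-83065111, plus strand: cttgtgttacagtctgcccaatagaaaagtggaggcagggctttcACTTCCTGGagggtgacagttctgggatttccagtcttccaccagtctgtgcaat
Slfn4, chr11:83175086-83175185, plus strand: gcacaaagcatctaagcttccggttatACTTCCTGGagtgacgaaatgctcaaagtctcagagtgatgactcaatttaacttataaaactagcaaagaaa
Slfn3, chr11:83191230-83191329, plus strand: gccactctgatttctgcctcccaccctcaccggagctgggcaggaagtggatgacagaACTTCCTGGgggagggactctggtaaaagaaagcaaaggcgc

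The motifs were searched on both strands in windows from 250 bases before to 50 bases after the start; all 7 genes had a window, and Slfn8 had a second one from another start. The interferon-stimulated response element, searched as GAAA, any 2 bases and GAAA, matched in the long genes only among the 7: at -155 in Slfn5, at -48 in Slfn8 and at -45 in Slfn9, the last 2 on the reverse strand. It was found in 3.44% of all 32851 promoter windows. An ETS-type motif, searched as CCAGGAAGT after it was noticed in these sequences, matched on the reverse strand in the short and intermediate genes: at -74 in Slfn1, -55 in Slfn2, -73 in Slfn4 and -42 in Slfn3. Of all windows 0.84% held it. Because the motif was taken from these promoters, that share does not measure an enrichment in them. The gamma-activated site, searched as TTCNNNGAA, had no match in the 7 genes and was found in 8.3% of all windows. The matches did not overlap one another, and a match or its absence is a description of these letters in these windows.

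Library totals ran from 15832837 to 19186615 counts, with 21728 to 22269 genes detected. The library shSCR replicate 3 stood apart on the first principal component (47.8% of the variance), at 54.8 against -28.4 to 9.31 in the other 5, and held 2.17% of its counts in 12 hepatocyte markers against 3.99% to 5.15% in the others. On the second component (21.2%), shZdhhc17 replicate 1 lay at 36.9 and the others between -18.0 and 7.58. The targeted gene checked the labels: Zdhhc17 was at 33.7, 32.4 and 34.2 CPM (counts scaled to a common library size with TMM) in shSCR replicates 1, 2 and 3, and at 25.9, 27.8 and 26.0 in shZdhhc17 replicates 1, 2 and 3. The groups did not overlap, and the log2 fold change was -0.33 ± 0.11 (SE, n = 3 per group). Of 15567 genes tested with edgeR's quasi-likelihood test, 0 (0%) had a Benjamini-Hochberg adjusted p under 0.05; 1780 (11.4%) had an unadjusted p under 0.05. DESeq2 called 201 of 17127 genes (1.17%), voom called 0, and the authors' deposited table lists 204 of 24167 (0.844%) with a q under 0.05.

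Of the 7 Schlafen genes, 7 passed the filter on low counts and 0 passed the adjusted threshold with edgeR, DESeq2 or voom, beside the 0%, 1.17% and 0% of all genes just given; 2 had an unadjusted edgeR p under 0.05, both lower in shZdhhc17, beside 6.71% of all genes in that direction. The log2 fold change (shZdhhc17 minus shSCR) was negative in 6 and positive in Slfn3, with a median of -0.45; over all tested genes 49.7% were negative and the median was 0.0017. On the TMM scale the groups did not overlap in 3 of the 7, beside 17.1% of all genes in either direction. Slfn4 and Slfn8 were lower in shZdhhc17, beside 9.62% of all genes. Slfn3 was higher, beside 7.48% of all genes, but overlapped when scaled by plain library totals. Since the family was picked on this contrast, these counts are descriptions. Without both libraries that stood apart, 3 of the 7 were negative in place of 6.

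**Figure D1:**
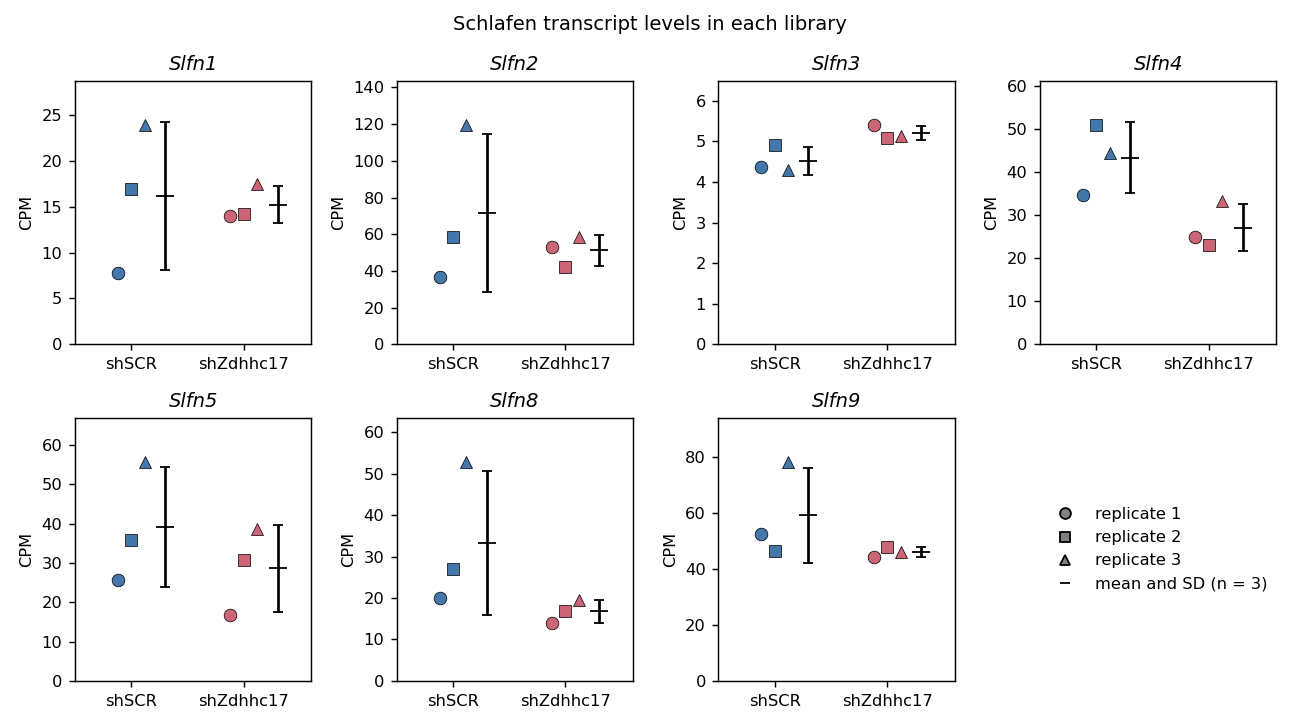
CPM (y axis, from 0, a separate scale for each gene) of the 7 Schlafen genes in the 3 shSCR and 3 shZdhhc17 libraries (x axis); each point is a library, its shape the replicate number, and the bar beside it the mean and SD (n = 3). In Slfn1, Slfn2, Slfn5, Slfn8 and Slfn9 the highest point is shSCR replicate 3, whereas in Slfn4 it is shSCR replicate 2 at 51.0 CPM.

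Slfn4 (ENSMUSG00000000204.17), the myeloid-induced intermediate member, was at 34.8, 51.0 and 44.5 CPM in shSCR replicates 1, 2 and 3 and at 24.8, 23.2 and 33.3 CPM in shZdhhc17 replicates 1, 2 and 3. Every shZdhhc17 library lay below every shSCR library, with a gap from 33.3 to 34.8 CPM. These levels rested on 638, 976 and 797 counts and on 395, 388 and 505 counts. The mean was 43.4 ± 8.18 (SD, n = 3) against 27.1 ± 5.43, which is 37.6% lower, and the log2 fold change was -0.68 ± 0.20 (SE). With 1 library left out it was between -0.85 (without shZdhhc17 replicate 3) and -0.55 (without shSCR replicate 2). It was -0.67 without shSCR replicate 3, the library that stood apart, and -0.62 without both that and shZdhhc17 replicate 1. The authors' deposited table gives -0.66 for Slfn4, with a q of 0.163.

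The neutrophil genes went the other way from Slfn4, which is the contrast on which the family was chosen. Neutrophils carry granule proteins made early in their maturation, and mature cells express calgranulins and stefins. All 13 tested genes of the granule list had a positive log2 fold change (median 2.69), and 12 of 14 tested genes of the mature neutrophil list did (median 0.71); 0 of either passed the adjusted threshold. S100a9, a calgranulin subunit, was at 58.2, 123 and 28.1 CPM in shSCR and at 258, 159 and 315 CPM in shZdhhc17, without overlap. Ctsg, the granule protease cathepsin G, differed most of its list (4.45 ± 1.12) and was at 0, 2.14 and 0.167 CPM in shSCR and 11.9, 6.39 and 33.7 CPM in shZdhhc17.

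On the log2(CPM + 1) scale the level of Slfn4 minus that of S100a9 was -0.73, -1.26 and 0.65 in shSCR and -3.33, -2.73 and -3.20 in shZdhhc17. Every library of the silenced group lay below the lowest control library. This restates the contrast on which the family was chosen and is no separate result. Not all neutrophil-associated genes stood so far from Slfn4. Mmp9, the granule gelatinase and the lowest of its list (0.035 ± 0.24), was at 96.4, 90.5 and 136 CPM and at 128, 126 and 77.9 CPM, which overlap. Slfn4 minus Mmp9 was -1.45, -0.81 and -1.60 in shSCR and -2.32, -2.39 and -1.20 in shZdhhc17, which overlap as well. Acod1, an itaconate-making enzyme that activated neutrophils and macrophages express, was the lowest of the mature neutrophil list at -1.52 ± 0.66, with 3.60, 7.16 and 21.5 CPM in shSCR and 1.95, 4.36 and 4.88 CPM in shZdhhc17.

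Slfn3 (ENSMUSG00000018986.11), the other intermediate member and the next gene to Slfn4 on the chromosome, was the lowest expressed of the 7. It was at 4.36, 4.92 and 4.30 CPM in shSCR and 5.41, 5.08 and 5.14 CPM in shZdhhc17. The shZdhhc17 libraries all lay above the shSCR libraries, by a narrow step from 4.92 to 5.08 CPM. The means were 4.52 ± 0.34 and 5.21 ± 0.18 (SD, n = 3), and the log2 fold change was 0.20 ± 0.19. The libraries held 77 to 94 counts of Slfn3. In the single library with the fewest, the counting error was 11.4% of the count. The difference between the means of 3 libraries was 15.1%. With plain library totals in place of TMM, which moved the median of all genes by -0.13, the log2 fold change of Slfn3 was 0.073. The raw counts were 80, 94 and 77 in shSCR and 86, 85 and 78 in shZdhhc17. Scaled by library totals alone, the groups overlapped. Both the size of the difference and the lack of overlap thus depended on the scaling.

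Slfn3 and Slfn4 have nearly the same coding sequence, with 91.4% identity over the aligned bases. Of the 50-base windows of the Slfn4 transcripts, 6.28% were also found in Slfn3 and 4.01% in the neighbouring Gm11427. Of those of Slfn3, 7.39% were found in Slfn4 and 6.45% in Gm11427. Counting every other gene, 10.82% of the windows of Slfn4 and 15.58% of those of Slfn3 were shared. No label says how reads that match more than 1 gene were counted, so the values of this pair are uncertain to that extent. Slfn4 minus Slfn3 on the log2(CPM + 1) scale was 2.74, 3.14 and 3.10 in shSCR and 2.01, 1.99 and 2.48 in shZdhhc17, without overlap between the groups. Since the family was picked on the lower level of Slfn4, this difference is a description and no separate result. Gm11427 itself was low, at 1.25, 4.03 and 5.86 CPM in shSCR and 1.89, 2.03 and 3.23 CPM in shZdhhc17, which overlap.

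Slfn8 (ENSMUSG00000035208.17), a long member, had the lowest log2 fold change of the 7. It was at 19.9, 27.1 and 53.0 CPM in shSCR and at 14.0, 17.0 and 19.5 CPM in shZdhhc17. The groups did not overlap, but the gap was narrow: the top shZdhhc17 library and shSCR replicate 1 were nearly level, and shSCR replicate 3 was far above both. The means were 33.4 ± 17.4 and 16.8 ± 2.72 (SD, n = 3), with a log2 fold change of -0.99 ± 0.35. Without shSCR replicate 3 it was -0.49 and without shSCR replicate 1 it was -1.25. The authors' deposited table gives -0.96 with a q of 0.165.

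Slfn9 (ENSMUSG00000069793.13), the near copy of Slfn8, was at 52.6, 46.4 and 78.3 CPM in shSCR and at 44.2, 47.8 and 46.0 CPM in shZdhhc17. The silenced libraries were close together, and shSCR replicate 2 lay among them, so the groups overlapped. The means were 59.1 ± 16.9 and 46.0 ± 1.81 (SD, n = 3) and the log2 fold change was -0.36 ± 0.20, or -0.11 without shSCR replicate 3. Slfn8 and Slfn9 are 92.7% identical in coding sequence, and 9.3% of the 50-base windows of Slfn8 occur in Slfn9 and 10.11% in the pseudogene Slfn10-ps, so reads could be divided between them.

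Slfn5 (ENSMUSG00000054404.14), a long member known as a nuclear interferon-induced protein, was at 25.7, 35.9 and 55.8 CPM in shSCR and at 16.7, 30.8 and 38.6 CPM in shZdhhc17. The groups overlapped, and both spread widely. The means were 39.2 ± 15.3 and 28.7 ± 11.1 (SD, n = 3), with a log2 fold change of -0.45 ± 0.37. It was -0.11 when shSCR replicate 3 was left out, -0.16 when shZdhhc17 replicate 1 was, and 0.15 when both were, so the sign of Slfn5 rested on these 2 libraries. Slfn5os is annotated antisense to Slfn5, and without a stated strand setting the reads of such partners cannot be told apart.

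Slfn2 (ENSMUSG00000072620.4), the short member that restrains T cell activation, was the most abundant. It was at 36.6, 58.2 and 119.6 CPM in shSCR and at 53.0, 42.0 and 58.5 CPM in shZdhhc17. The shSCR range enclosed the whole shZdhhc17 range. The means were 71.5 ± 43.0 and 51.1 ± 8.40 (SD, n = 3), and the log2 fold change was -0.48 ± 0.40. Without shSCR replicate 3 it was 0.11, and without shSCR replicate 1 it was -0.80. The antisense gene Gm20234 overlaps Slfn2, with the same limit, but was at 0.0597 to 0.558 CPM.

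Slfn1 (ENSMUSG00000078763.3), the founding short member, described in thymocytes, was at 7.79, 16.9 and 23.9 CPM in shSCR and at 14.0, 14.2 and 17.5 CPM in shZdhhc17. Here too the control libraries spanned the silenced ones, with shSCR replicate 1 lowest and replicate 3 highest. The means were 16.2 ± 8.09 and 15.2 ± 2.00 (SD, n = 3), with a log2 fold change of -0.089 ± 0.37 that was 0.30 without shSCR replicate 3 and -0.42 without shSCR replicate 1.

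**Figure D2:**
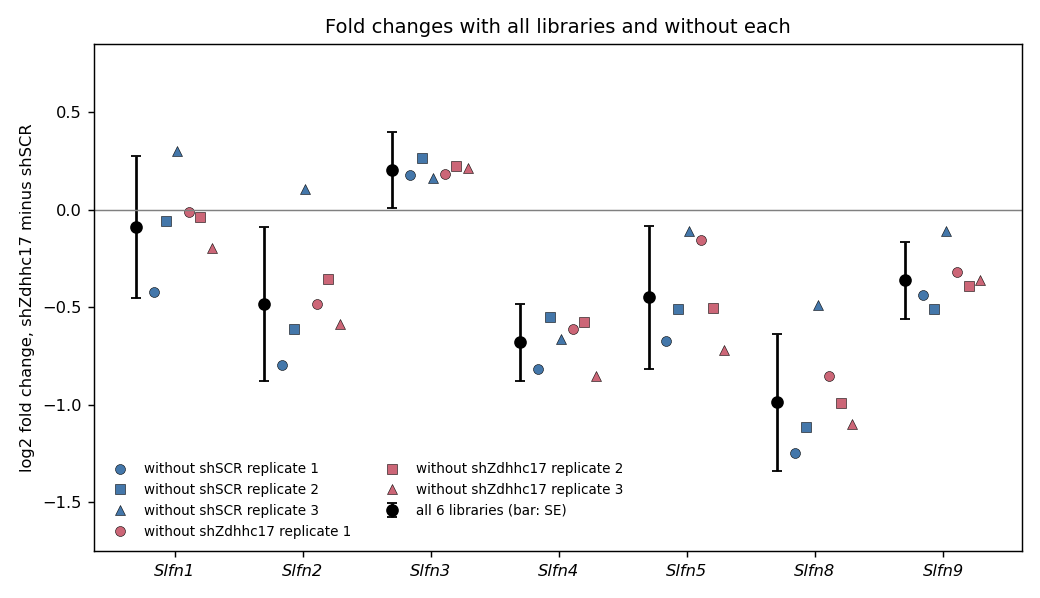
Log2 fold change (y axis, shZdhhc17 minus shSCR) of each Schlafen gene (x axis) with all 6 libraries (black, bar: SE) and with each library left out (coloured by group, shaped by replicate). Slfn4 keeps to -0.85 to -0.55, while Slfn2 goes from -0.80 to 0.11 and Slfn1 from -0.42 to 0.30, the highest value in both being the fit without shSCR replicate 3.

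The remaining rows with a Schlafen symbol were low. Slfn10-ps, the pseudogene between Slfn8 and Slfn2, was at 2.02, 3.56 and 2.23 CPM in shSCR and at 1.70, 2.03 and 1.85 CPM in shZdhhc17, with a log2 fold change of -0.48 ± 0.31. Slfn14 held 4 counts over all 6 libraries and Slfnl1, which lies outside the cluster, held 2, and neither was tested. The nearest tested genes outside the cluster were Unc45b, a myosin chaperone of muscle, at -0.40 ± 0.24 without overlap between the groups, and AA465934 at -0.52 ± 0.33 with overlap. Both were low: Unc45b was at 2.64 to 4.71 CPM and AA465934 at 0.923 to 2.23 CPM.

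Levels can be set side by side only per length. As CPM per kb of exon, averaged over the 6 libraries, Slfn2 was highest at 36.8, Slfn4, Slfn9 and Slfn1 followed at 8.90, 8.81 and 8.44, then Slfn8 at 6.13 and Slfn5 at 5.36, and Slfn3 was lowest at 1.43. The 3 genes after Slfn2 lay closer to one another than the range of any of them over the libraries, and so did Slfn8 and Slfn5, which changed places when coding length was used. Slfn2 alone made up 40.8% to 54.4% of the summed level of the 7 in each library.

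The summed level per kb was 54.0, 78.5 and 132 in shSCR and 60.6, 57.2 and 73.0 in shZdhhc17, which overlap; the means were 88.2 ± 39.9 and 63.6 ± 8.32 (SD, n = 3). Within that sum the part of Slfn4 was 16.2%, 16.4% and 8.49% in shSCR and 10.3%, 10.2% and 11.5% in shZdhhc17. The lowest share of Slfn4 was thus in shSCR replicate 3, where its own level was above every silenced library but that of Slfn2 was highest.

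**Figure D3:**
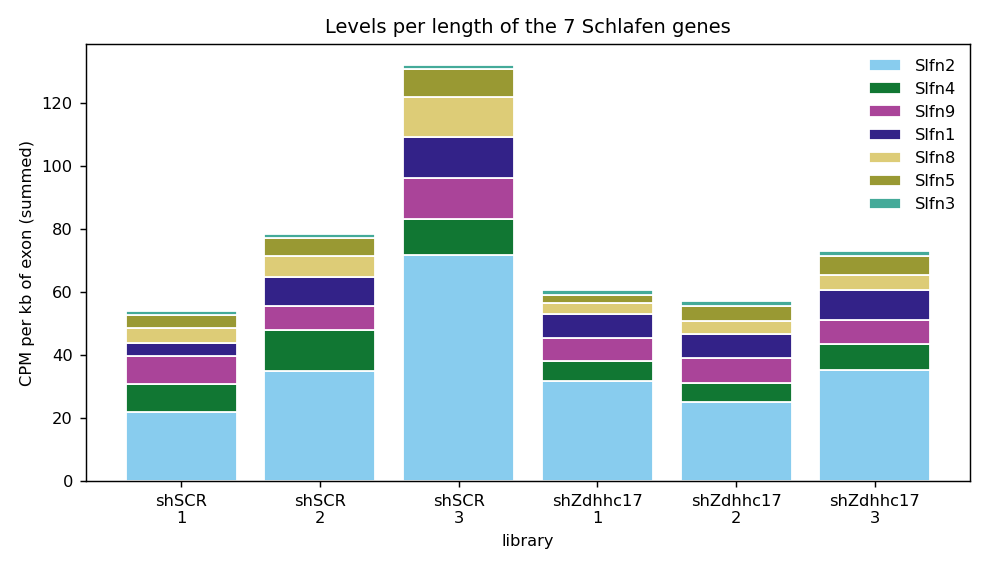
Stacked bars of the level of the 7 Schlafen genes per kb of exon (y axis, summed CPM per kb, from 0) in each of the 6 libraries (x axis), 1 colour per gene. Slfn2 is the largest segment in each bar, and the bar of shSCR replicate 3 reaches 132 against 54.0 to 78.5 in the other 5.

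The 7 genes did not share 1 profile over the libraries. Profiles were compared by the root mean square distance of log2(CPM + 1) values after the mean of each gene was subtracted, over 6 libraries that share depth and tissue makeup, so the distances are descriptions. The closest pair was Slfn1 and Slfn2 (0.26), the adjacent short genes, followed by Slfn5 and Slfn8 (0.31). The near copies were not the closest pairs: Slfn8 and Slfn9 lay 0.37 apart, and Slfn3 and Slfn4 lay 0.46 apart. With the group means taken out, Slfn3 and Slfn4 were 0.20 apart and Slfn8 and Slfn9 were 0.27 apart. Closer than either were Slfn1 and Slfn2, Slfn1 and Slfn8, and Slfn2 and Slfn8, each at 0.19. With the group means kept, the farthest pair was Slfn3 and Slfn8 (0.68).

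**Figure D4:**
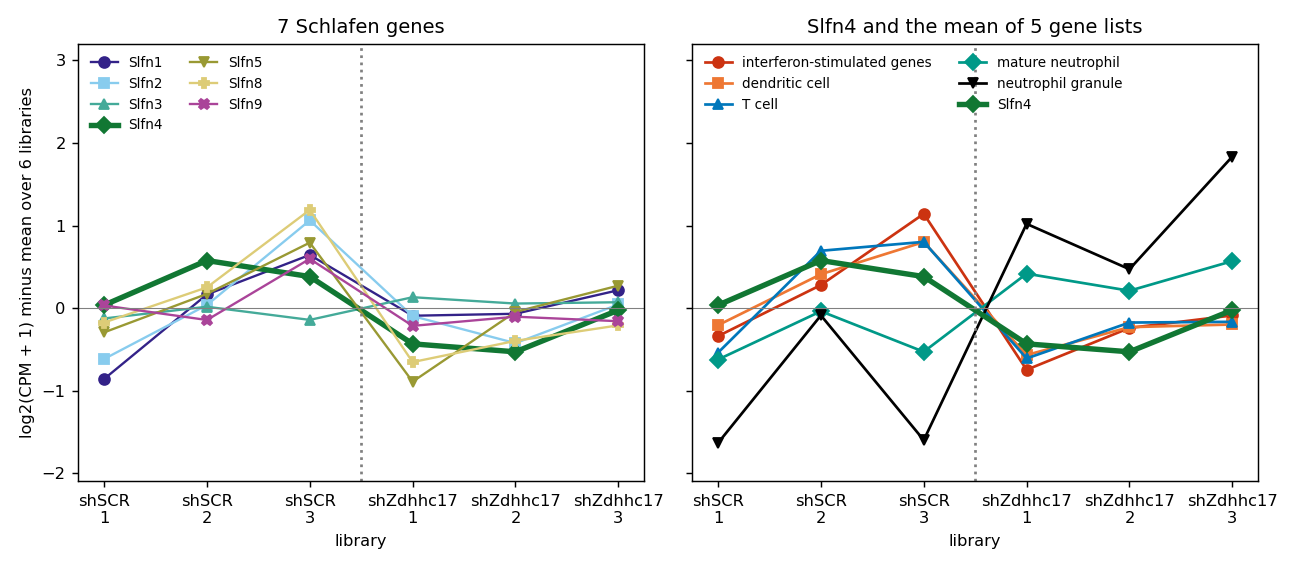
Log2(CPM + 1) minus its mean over the 6 libraries (y axis) in each library (x axis; the dotted line parts shSCR from shZdhhc17): the 7 Schlafen genes on the left, and Slfn4 with the means of 5 gene lists on the right. Slfn1, Slfn2, Slfn5, Slfn8 and Slfn9 peak in shSCR replicate 3 and Slfn4 in shSCR replicate 2; the neutrophil granule list is higher in each shZdhhc17 library than in each shSCR library.

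No Schlafen gene that was ranked lay near Slfn4 with the group means kept. Among 11896 genes with a mean of at least 5 CPM, Slfn9 ranked 2592 by distance to Slfn4, Slfn8 ranked 3291, Slfn5 3831, Slfn2 6478 and Slfn1 7290. Slfn3 was under the minimum and was not ranked. It lay 0.46 from Slfn4, or 0.20 with the group means taken out, and ranks of the members on that scale were not computed. The 8 nearest genes, from 0.099 to 0.13, were Adamts10, a fibrillin-binding secreted protein of the metalloprotease family, Gm20342, Rasl11a, a small GTPase-like protein, D930048N14Rik, Akap8l, a nuclear anchoring protein, Ptprn, a phosphatase-like protein of secretory granules, Il11, a cytokine of the interleukin-6 family, and Pnisr, a splicing-associated protein. Adamts10, the nearest, was at 50.1, 69.6 and 74.2 CPM in shSCR and at 36.1, 37.1 and 47.3 CPM in shZdhhc17, with a log2 fold change of -0.69 ± 0.19. These genes share with Slfn4 the step between the groups: when the group means were taken out, 1 of the 8 was still among the 8 nearest.

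Interferon-stimulated genes, the programme that several Schlafen genes are counted among, were lower in shZdhhc17 in nearly the whole list. Of 30 tested genes 29 had a negative log2 fold change (median -0.85), and 0 passed. The mean log2(CPM + 1) of the list was 4.49, 5.11 and 5.97 in shSCR and 4.08, 4.59 and 4.74 in shZdhhc17, which overlap, with shSCR replicate 3 on top. Oasl2, an antiviral oligoadenylate synthetase-like gene and the lowest of the list, was at 54.8, 91.3 and 226 CPM in shSCR and at 35.2, 41.3 and 45.9 CPM in shZdhhc17 (-1.61 ± 0.48). Samhd1, a nucleotide-depleting restriction factor and the most abundant, was at 84.4, 180 and 399 CPM and at 89.9, 123 and 157 CPM (-0.84 ± 0.51). The exception was Ifih1, the RNA sensor MDA5, at 0.14 ± 0.20.

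The Schlafen gene nearest to that list was Slfn8, at a distance of 0.11 from its mean, followed by Slfn5 at 0.23 and Slfn2 at 0.32. Slfn9, Slfn4 and Slfn1 were 0.39, 0.41 and 0.42 away, and Slfn3 was 0.67 away. Slfn8, Slfn5, Slfn2 and the list were all highest in shSCR replicate 3, but so were Slfn9 and Slfn1, which lay farther from the list. Distances without that library were not computed. The response element printed above was matched in Slfn8, Slfn5 and Slfn9, and no match was found in Slfn2. Whether the element bears on the distances to the list was not tested.

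The interferon receptors and JAK-STAT genes, which carry the signal to those targets, were less one-sided. Of 19 tested genes 6 were positive and 13 negative (median -0.30), and 0 passed. Stat3, a signal transducer and the most abundant of them, stood at 0.12 ± 0.18 and Jak1, a receptor kinase, at 0.22 ± 0.17. Socs1, the feedback inhibitor that interferon induces, was the lowest at -1.83 ± 0.99, with 5.67, 16.0 and 116 CPM in shSCR and 7.61, 12.3 and 18.8 CPM in shZdhhc17. The high value was again that of shSCR replicate 3. This list was the nearest of 16 to Slfn5 (0.21) and to Slfn2 (0.29).

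Toll-like receptor genes, whose ligands induce Slfn4 in macrophages, were balanced: of 19 tested genes 9 were positive and 10 negative (median -0.018), and 0 passed. Tlr7, a receptor for single-stranded RNA, was the highest at 0.58 ± 0.23, and Tnf, an inflammatory cytokine that the pathway induces, was the lowest at -1.17 ± 0.51. Of the 16 lists this one was nearest to Slfn9 (0.22), while Slfn3 was nearer to it (0.17). The hedgehog list was included because Gli1 is known as an activator of Slfn4 in myeloid cells of the stomach. Of its 10 tested genes 3 were positive and 7 negative (median -0.065), and 0 passed. Gli1 itself was low, at 1.09, 0.628 and 0.614 CPM in shSCR and at 0.44, 0.537 and 0.594 CPM in shZdhhc17 (-0.56 ± 0.40). Of the 16 lists the hedgehog list was nearest to Slfn3 (0.096), and both were nearly flat over the libraries.

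Among the marker lists of cell types, Slfn4 was nearest to that of dendritic cells (0.26) and, after it among the 16 lists, to the JAK-STAT list (0.33). The distance of Slfn4 to the mature neutrophil list was 0.74 and to the granule list 1.51, which was the farthest list for each of the 7 genes. For Slfn4 this restates the contrast on which the family was chosen. The distance also grows with how far a list moves over the libraries. The mean log2(CPM + 1) of the granule list ran from 2.37 to 5.85. All 12 tested dendritic cell markers were negative (median -0.94) and 0 passed; their mean log2(CPM + 1) was 2.18, 2.80 and 3.19 in shSCR and 1.82, 2.15 and 2.19 in shZdhhc17, which overlap narrowly. Itgax, which encodes CD11c, was the most abundant and the lowest of them, at 25.3, 49.2 and 69.1 CPM in shSCR and 12.4, 23.7 and 18.3 CPM in shZdhhc17 (-1.40 ± 0.38).

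T cell markers were negative in 14 of 15 (median -1.10) and natural killer cell markers in 9 of 9 (median -0.87), with 0 passed in either. Cd8a, a receptor subunit of cytotoxic T cells and the lowest of its list, was at 0.327, 9.15 and 4.35 CPM in shSCR and 0.377, 1.43 and 0.725 CPM in shZdhhc17, so its control libraries spanned both ends. The T cell marker with a positive sign was Tcf7, the most abundant of the list (0.46 ± 0.20). Its mean was 9.05 CPM in shSCR and 12.4 CPM in shZdhhc17. Among the tested T cell markers, only in Tcf7 did the groups not overlap. Monocyte markers split 8 to 6 (median 0.021) and macrophage markers 10 to 6 (median 0.23). Csf1r, the receptor that both lineages need, was at 0.076 ± 0.25. Of the 16 lists the monocyte list was nearest to Slfn1 (0.24). The part of these cell types, and of the liver content, in the Schlafen values was not tested.

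**Figure D5:**
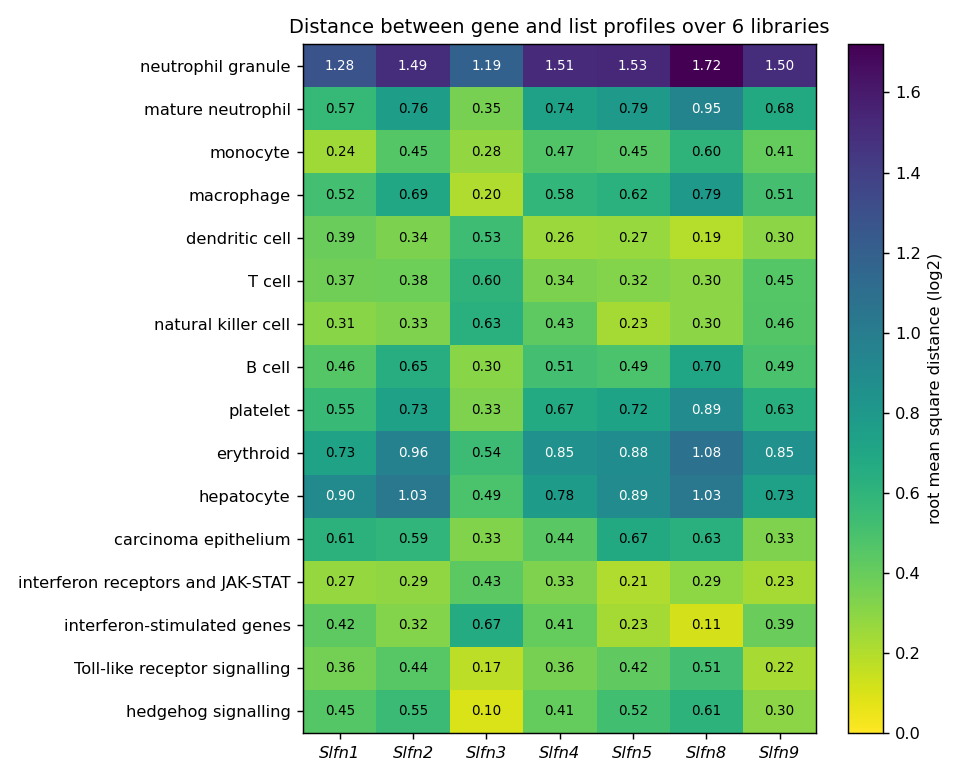
Root mean square distance in log2 units (colour and printed value, from 0) between the profile of each Schlafen gene (columns) and the mean profile of each of 16 gene lists (rows) over the 6 libraries. The top row, neutrophil granule, is the farthest for all 7 genes (1.19 to 1.72), and the smallest values are those of Slfn3 with hedgehog signalling (0.10) and Slfn8 with interferon-stimulated genes (0.11). The distance grows with how far a list moves over the libraries. For Slfn4 the neutrophil rows restate the contrast on which the family was chosen.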

How the data were processed

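RNA from dissected liver metastases was sequenced from a stranded polyadenylated-RNA kit, per the labels' protocols. Per the submitters' processing notes, which give no roles, the tools were STAR 2.6.1, HTSeq, DESeq2 1.34.0 and FastQC 0.11.8 on GRCm39 (mm39); no source used here states whether counting used strand. The authors deposited raw counts per gene, and a DESeq2 table of log2 fold changes with p-values and q-values. Groups came from the sample titles.

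The counts were tested with edgeR 4.0.16 (robust glmQLFit, glmQLFTest, two-sided, TMM, filterByExpr, Benjamini-Hochberg threshold 0.05), with DESeq2 1.42.0 and limma voom 3.58.1 as alternatives, in R 4.3.3. The edgeR test was tested on simulated data. Standard errors came from the F statistic, and the pseudocount of profiles was 1. Lengths, transcripts and promoters are of GRCm38, another build than that of the counts. Transcripts were cut into windows of 50 bases. Named were all Schlafen rows, the 8 genes nearest to Slfn4 with a mean of at least 5 CPM, the neighbours of the cluster, and list genes with the highest level or the highest or lowest fold change; Gm11427 was added for its shared sequence. The members and the 16 gene lists were chosen with earlier results of these data known. Chil3 and Lcn2 stand on 2 lists each, and 3 list genes were not matched.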

Additional observations from a re-analysis of the deposited data

How the results depend on the processing

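The 7 Schlafen genes gave 0 calls under every alternative run (2 with an unadjusted edgeR p under 0.05 in the reported fit, beside 11.4% of all genes). Over all genes the count was 0 in the reported fit, 3 without a filter on low counts, 201 with DESeq2, 0 to 1 with 1 library left out (1 without shSCR replicate 3), and 1 without both shSCR replicate 3 and shZdhhc17 replicate 1, an alternative chosen after seeing the data; the cause was not tested. Slfn3, Slfn4, Slfn8 and Slfn9 had the same sign in 16 of 16 alternatives. Slfn1 reversed to 0.047 with voom, 0.031 with the replicate block and 0.34 without both libraries, Slfn2 to 0.064 and Slfn5 to 0.15 without both. With 1 library left out Slfn1 ran from -0.42 to 0.30, Slfn2 from -0.80 to 0.11 and Slfn5 from -0.72 to -0.11. Plain library totals moved the median of all genes to -0.13, or to -0.14 without Rn18s-rs5, which took 2.54% of counts in shSCR replicate 1.

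Replicate numbers were not treated as pairs in the reported fit. The deviations of same-numbered libraries from their group means had correlations of -0.059, 0.32 and -0.046. Not every library correlated best with its own number. With 3 libraries a group, these correlations cannot settle whether the libraries were paired. With the replicate block 0 genes were called, and 3 of the 7 members had an unadjusted edgeR p under 0.05 in place of 2. Since the family was picked on this contrast, these member counts are descriptions. In place of 1780 of 15567 genes in the reported fit, 1623 had such a p with the block. The standard error of Slfn5 was then 0.14 in place of 0.37 and that of Slfn8 0.22 in place of 0.35, while that of Slfn3 was slightly larger. By coding length of the reference transcripts, used after seeing the files because no protein sequences were used here, the shares of the summed level were 39.6% for Slfn2, 9.62% for Slfn5 and 15.1% for Slfn9, against 47.4%, 7.11% and 12.2% by exon length. With a pseudocount of 0.25, 7 of the 8 genes nearest to Slfn4 were kept. With 3 libraries a group and 77 to 94 counts of Slfn3 in each, counting error was not small beside the difference in Slfn3. Whether that difference exceeded counting error was not tested.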

Other observations

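Other lists described blood, liver and carcinoma cells. Platelet markers were positive in 7 of 7 tested genes (median log2 fold change 1.12), and Ppbp, a platelet chemokine, was the highest at 2.34 ± 0.89. Erythroid markers were positive in 8 of 9 (median 1.02). Hbb-bs, a haemoglobin chain, was at 152, 584 and 156 CPM in shSCR and 526, 856 and 769 CPM in shZdhhc17, which overlap. B cell markers were positive in 9 of 10 (median 0.39), most of them opposite in sign to the T and natural killer cell lists. The groups overlapped in each B cell marker, and 0 had an unadjusted edgeR p under 0.05. Hepatocyte markers were positive in 10 of 12 (median 0.30); Alb was lowest in shSCR replicate 3, at 7831 CPM against 17279 to 25533 CPM in the other 5 libraries. Carcinoma epithelium markers were negative in 11 of 14 (median -0.37), and Krt19, a keratin, was the lowest at -0.92 ± 0.34. None of these lists had a gene past the adjusted edgeR threshold.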
